A study of Saccharomyces cerevisiae with 4 samples.

Results

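TAT12 is a strain of the yeast Saccharomyces cerevisiae that went through 2 rounds of laboratory evolution, and its transcriptome was set here against that of TTY23, the strain from which its second round began. TTY23 was selected from S288C, the haploid laboratory strain, in cultures held at elevated temperature, and TAT12 was then selected from TTY23 in acidic medium with acetic acid, so both strains carry the history of the heat round and TAT12 alone that of the acid round. Both were grown in flasks of defined medium with 2% glucose at pH 5.0, 30 °C and 250 rpm, without the heat or the acid of the selections, and were sampled in the middle of exponential growth. The question the comparison addresses is how the doubly evolved strain differs in expression from its heat-evolved progenitor under conditions that are benign for the ancestor. The comparison was the dye swap whose label pairs TTY23 with TAT12, 1 of the 4 dye swaps and 2 of the 8 arrays of the series, and all 6336 gene probes of the array were kept. The other swaps set AT22 (selected from S288C in acid alone) against S288C, and TAT12 against S288C and against AT22. Nothing in the labels says that separate cultures were hybridised, so the comparison has n = 1 and its 2 arrays measure the spread of the hybridisation, not that between cultures.

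In a dye swap the cDNA of the strains is hybridised on 2 arrays with the dyes exchanged, so that a dye effect on a gene enters both arrays with opposite signs once the ratios are turned the same way. On array 1 TAT12 was labelled with Alexa647 and TTY23 with Alexa555, and on array 2 the dyes were exchanged. Each probe was printed as a pair of spots, which gives 4 spots per gene, and every ratio below is the log2 of TAT12 over TTY23. A gene was called higher or lower when its mean log2 ratio over both arrays lay more than 2 SD from the mean of the 100 probes nearest to it in mean intensity. This distance is the z-score that the study's methods use. It ranks a gene against other genes of like brightness and is not a test across cultures. The number of genes it calls is set largely by the rule and does not measure how far the strains differ.

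Yeast meets heat and acid with overlapping programs. The heat-shock factor Hsf1 drives chaperones of the Hsp70, Hsp90 and Hsp104 classes, which hold, refold or disaggregate proteins, while the paired factors Msn2 and Msn4, kept in check by cyclic AMP and protein kinase A, drive a general stress program of protective enzymes, reserve carbohydrates and small heat-shock proteins. Weak acids such as acetate enter the cell undissociated and release protons inside it, which the plasma membrane ATPase Pma1 and the vacuolar ATPase pump out of the cytosol at a cost in ATP. Efflux pumps under the factors War1 and Haa1 export the anions.

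The scanner signal was moderate. The median signal over background was between 1.87 and 3.52 in the 4 channels of the pair, and between 68.6% and 75.5% of the probes lay above the 95th percentile of the empty spots, the limit used here for a signal above background. No channel held more than 7 saturated probes. All 4 signals of 4006 probes (63.2%) were above background. Across the 6336 probes the turned log2 ratios of the arrays had a Pearson correlation of 0.13, and across the probes above background in all 4 signals one of 0.41, as a description over probes that share both RNAs. Duplicate spots of one array correlated at 0.87 on array 1 and 0.94 on array 2. The SD over probes was 0.22 for the mean of both arrays and 0.19 for the difference of the arrays divided by 2, in which the strains cancel. These spreads are close, and the genes that matter below are given with both arrays.

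Most, but not all, of the mating-type markers went against the mating type that the study gives for the ancestral strain, MATα. Of the 6 α-specific genes measured, 1 was above background in all 4 signals, MATALPHA1, and 2 of the 6 probes name several genes. MATALPHA2, on a probe that also names HMLALPHA2 and HMRA2, was above background in TAT12 on 2 arrays and in TTY23 on 1. The most abundant pheromone gene of α cells, MF(ALPHA)1, was above background on neither array in TAT12 or in TTY23. Nor were the pheromone receptor gene STE3 and the agglutinin gene SAG1. All 7 a-specific genes were above background in all 4 signals, among them the a-factor gene MFA1 with net signals of 447 and 561 in TAT12, against 365 and 392 in TTY23, and the α-factor receptor gene STE2 with 276 and 261 in TAT12, against 267 and 219 in TTY23. These signals of MFA1 and STE2 lay below the highest net signals of the 32 probes named Ara, whose purpose is not given (627 to 908 over the 4 channels). AGA2, with 861 and 933 in TAT12, against 658 and 554 in TTY23, exceeded them in each channel but TTY23 on array 2. STE6 was dimmer, with 127 and 126 in TAT12, against 139 and 150 in TTY23. No a-specific gene was past the threshold. Of the α-specific genes MF(ALPHA)2 was called, at a log2 ratio of 0.42, with TAT12 above background on 2 arrays and TTY23 on 1.

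Of the 6336 probes 349 were past the threshold (5.51%), with 195 higher (3.08%) and 154 lower (2.43%) in TAT12. Of these 349, 297 had the same sign on all 4 spots (4.69% of all probes, 165 higher or 2.6% and 132 lower or 2.08%), and 36.5% of all probes had 1 sign on all 4 spots at any size. Both arrays were above 0 in 24.7% and below 0 in 25.3% of all probes. The signs of the arrays were opposite in 32 called probes. Both strains were above background on both arrays for 117 of the higher and 78 of the lower probes, and 161 of the called probes met every condition for the genes ranked below (same sign on all 4 spots, all signals above background, 1 gene named by the probe), 90 higher and 71 lower. The log2 ratios ran between -2.08 and 2.11, and 12 probes reached 1 or more (0.189%) while 1 reached -1 or less (0.0158%). Just inside the threshold lay CPR6 (log2 ratio 0.30) and RPO41 (-0.61), and just outside it UTP30 (0.26) and ICL2 (-0.63).

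**Figure D1:**
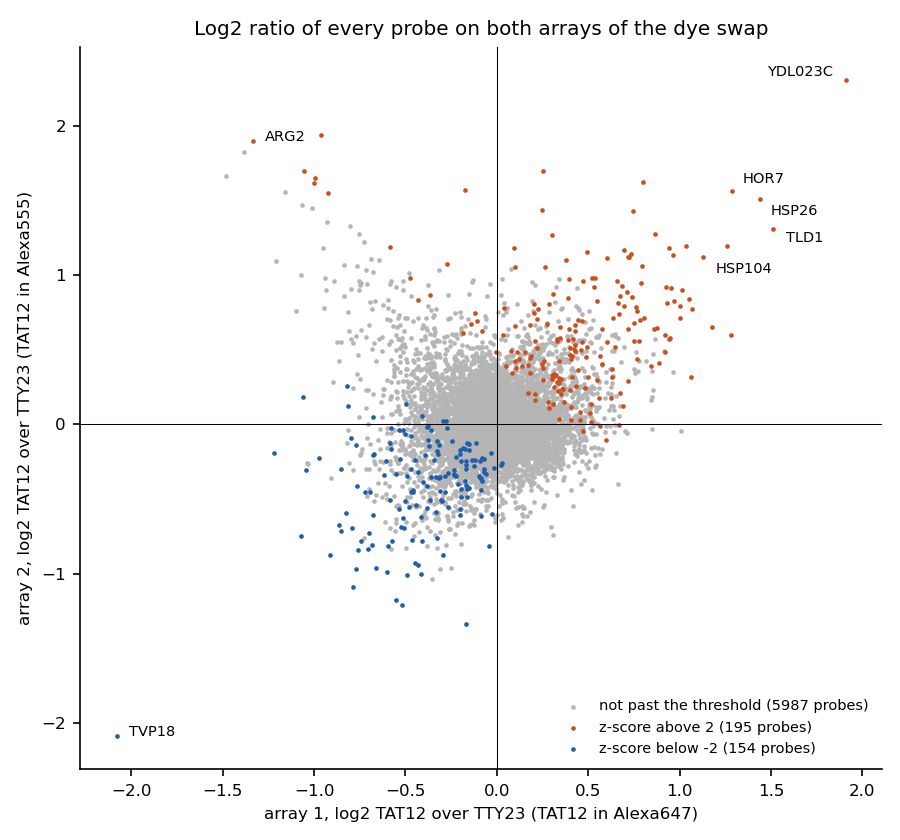
The log2 ratio of TAT12 over TTY23 of each of the 6336 probes on array 1 (x axis) and on array 2 (y axis), with the 195 probes called higher in orange, the 154 called lower in blue and all others in grey. YDL023C and TVP18 stand apart at the upper right and lower left, and a tail of probes at the upper left, with ARG2, has opposite signs on the arrays.

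With 1 dye swap there is no replicate of the comparison. A limma fit over the 4 dye-swap means of the series, in which the loop of S288C, AT22 and TAT12 leaves 1 residual degree of freedom and this swap is assumed to vary like that loop, called 0 of the 6336 probes at a Benjamini-Hochberg adjusted p of 0.05 (the smallest adjusted p was 1). At an unadjusted p under 0.05 it held 150 probes (2.37%), 86 higher and 64 lower. With array 2 of the swap between AT22 and S288C turned, since its direction is in doubt, the fit called 1 probe (0.0158%), TVP18 (log2 ratio -2.08, SE 0.15, limma adjusted p = 0.043), and 465 were under an unadjusted 0.05. With all 8 arrays and a dye term it called 0, with 359 under an unadjusted 0.05.

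The highest ratio belonged to YDL023C, an open reading frame that the array's annotation calls dubious and that mostly overlaps GPD1, the gene of the glycerol-3-phosphate dehydrogenase of glycerol synthesis. Its net signals were 478 and 599 in TAT12, against 97.3 and 68.1 in TTY23, and its log2 ratios were 1.91 on array 1 and 2.31 on array 2 (mean 2.11, a 4.31-fold difference, SD over 4 spots 0.23). The probe of GPD1 itself did not follow, at -0.02 and 0.19, and those of the next genes on either side, DIA3 and GPM2, were at -0.03 and 0.08 on average. Over S288C the YDL023C probe stood at 3.14 in TAT12, and over AT22 at 0.47.

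Among genes that met every condition above, HOR7 came next, a small protein gene whose transcript responds to osmotic stress, at 1.29 and 1.56 (mean 1.42, 2.68-fold, limma SE 0.20), and TLD1, listed in the files under its older name BSC2 and known as a lipid droplet protein, at 1.51 and 1.31 (mean 1.41, 2.66-fold). DAP1, the heme-binding partner of the sterol demethylase Erg11, gave 1.26 and 1.20. PEX22, a peroxisomal membrane protein needed for import into the organelle, gave 0.80 and 1.62 on the arrays. All 4 spots of each of these genes lay above 0.

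The chaperone genes HSP104 and SSA4 were among the next ranks. The disaggregase gene HSP104 had log2 ratios of 1.13 and 1.12 (mean 1.13, 2.18-fold), the glucokinase gene GLK1, which overlaps YCL042W, 0.75 and 1.43, and the stress-inducible Hsp70 gene SSA4 0.94 and 1.18, with an SD over its 4 spots of 0.41. The remaining members of the 12 highest were YJL118W, of unknown function, at 0.96 and 1.13, the Nudix hydrolase gene YSA1 at 0.25 and 1.70, the mitochondrial ribosomal protein gene RSM23 at 1.02 and 0.90, and YGL088W at 1.05 and 0.84. YGL088W overlaps the small nucleolar RNA gene SNR10, and its reading cannot be told apart from that gene's. YSA1 had the widest gap between arrays of these 12 genes.

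In TAT12 over S288C the same genes had ratios of 0.85 (HOR7), 1.72 (TLD1), 0.03 (DAP1), 0.77 (PEX22), 1.01 (HSP104), 0.55 (GLK1), 1.01 (SSA4), 1.48 (YJL118W), 1.83 (YSA1), 0.53 (RSM23) and 1.66 (YGL088W). In TAT12 over AT22 they had 0.66 (HOR7), 0.20 (TLD1), 0.40 (DAP1), 0.13 (PEX22), 0.35 (HSP104), 0.42 (GLK1), 0.38 (SSA4), 0.50 (YJL118W), 0.12 (YSA1), 0.01 (RSM23) and -0.12 (YGL088W). All but DAP1 were above 0 on both arrays over S288C, where DAP1 gave -0.05 and 0.11. Those arrays lay apart for SSA4 (1.84 and 0.18), YJL118W (2.2 and 0.76) and YGL088W (2.32 and 0.99). They were alike for HSP104 (0.93 and 1.08) and YSA1 (1.81 and 1.85). On array 1 of that swap the TAT12 channel had a median signal over background of 1.22, with 52.4% of probes above background. Over AT22 the arrays had opposite signs for TLD1, DAP1, PEX22, YSA1, RSM23 and YGL088W. These comparisons share TAT12, so they are values side by side and not independent support.

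The lowest ratio, and the only one of -1 or less, was that of TVP18, which encodes a membrane protein of late Golgi vesicles. Its net signals were 582 and 423 in TAT12, against 2266 and 1800 in TTY23, and its log2 ratios were -2.08 on array 1 and -2.09 on array 2 (a 4.24-fold lower signal, SD over 4 spots 0.40, z-score -6.82). The arrays were alike, while the spots of array 1 lay apart at -1.60 and -2.56. The neighbouring genes MOT3 and ABF2 were at -0.16 and 0.01 and were not called. In TAT12 over S288C the TVP18 arrays had opposite signs, 1.26 and -1.99 (mean -0.36), and in TAT12 over AT22 they were at 0.13 and -0.19 (mean -0.03).

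The other 11 of the 12 lowest genes lay between -0.94 and -0.77 and had varied roles. They included YLR031W (-0.78 and -1.09), the ubiquitin hydrolase gene YUH1 (-1.07 and -0.75), the alcohol dehydrogenase gene ADH7 (-0.92 and -0.87), YML108W (-0.77 and -0.97), the membrane-tethering tricalbin gene TCB1 (-0.55 and -1.17) and the kinetochore gene KRE28 (-0.52 and -1.21). ERG12, the mevalonate kinase of the sterol pathway, gave -0.66 and -0.96. GMC1 (-0.76 and -0.84), the threonyl-tRNA synthetase gene THS1 (-0.60 and -0.99), the oxidoreductase gene ORA1 (-0.85 and -0.71) and RRG9, needed to keep the mitochondrial genome (-0.71 and -0.83), complete the group. ADH7 and GMC1 were the most alike and TCB1 and KRE28 the least alike on the arrays. Over S288C these 11 genes had ratios in TAT12 between -0.92 (TCB1) and -0.17 (ORA1).

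**Figure D2:**
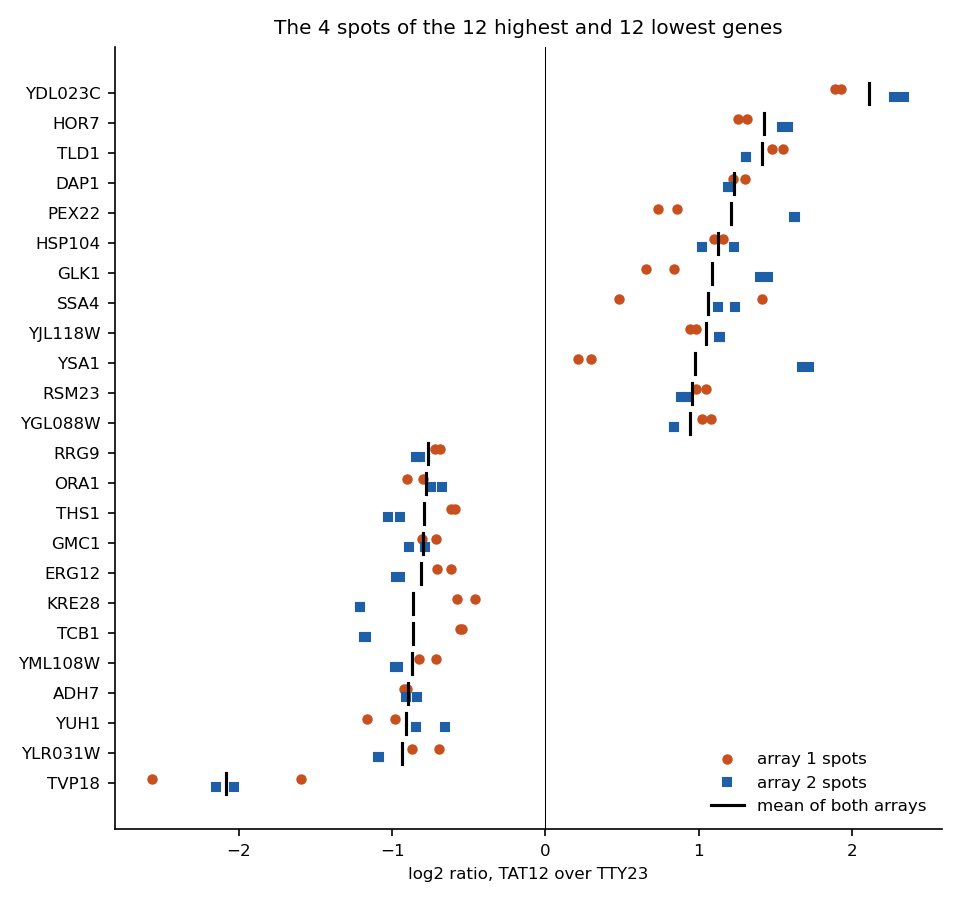
The log2 ratio of TAT12 over TTY23 (x axis) on each of the 4 spots of the 12 highest and 12 lowest genes, with array 1 as orange circles, array 2 as blue squares and the mean of both arrays as a black line. All spots of a gene lie on the same side of 0, as the choice of these genes required, and YSA1, PEX22 and KRE28 show the widest gaps between arrays.

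Called genes lay above 0 in 3 chaperone lists, Hsp104 with the small heat-shock proteins, Hsp70 and Hsp90. The first list also holds BTN2 and the membrane protein gene HSP30, neither of which is a small heat-shock protein. Of the 10 measured genes of Hsp104 and the small heat-shock proteins 4 were called higher and 0 lower, against 3.08% higher and 2.43% lower over all probes, and the median log2 ratio was 0.26, against 0.01 over all probes. HSP26, a small heat-shock protein that keeps unfolded proteins soluble, gave 1.44 and 1.51 (mean 1.48, 2.78-fold), with TTY23 above background on 1 of 2 arrays, which kept it out of the ranking above. BTN2, which sorts misfolded proteins, gave 0.49 and 0.52, and HSP30, a membrane protein that restrains Pma1 under stress, 0.34 and 0.65. The other 6 genes were between -0.15 (CUR1) and 0.29 (HSP12), and HSP12 had 0.64 on array 1 and -0.05 on array 2.

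Of the 11 cytosolic Hsp70 and Hsp110 genes 4 were called higher and 0 lower, with a median of 0.32, and 9 of the 11 lay above 0 on both arrays, against 24.7% of all probes. Besides SSA4 these were SSA1 (0.77 and 0.76, SD over 4 spots 0.01), SSA3 (0.40 and 0.97) and the nucleotide exchange factor FES1 (0.10 and 1.18, with not all 4 spots above 0). SSA2 was at 0.51 and not called. Since either probe is annotated with both SSA1 and SSA2, their readings cannot be separated. The ribosome-bound SSB1 and SSB2 were at 0.03 and -0.06, while SSA2 (0.51) and SSA4 (1.06) bound the SSA genes.

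Hsp90 and its co-chaperones had 3 of 14 genes called higher (3.08% of all probes), 0 lower and a median of 0.22. HSC82, the constitutive Hsp90 gene, gave 0.40 and 0.51, and its heat-inducible partner HSP82 0.42 and 0.55 without passing the threshold, on a probe that names both. The co-chaperone genes CPR6 (0.36 and 0.24) and AHA1 (0.36 and 0.24) passed narrowly, with TTY23 above background on 1 and on 0 of the 2 arrays.

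Few chaperones of other classes and compartments were called. Of 18 J-domain genes 0 were called (median -0.04), and of 8 genes of the CCT chaperonin, which folds actin and tubulin, 1 was called lower, CCT3, at -0.68 and 0.05, opposite in sign on the arrays and below background in both strains. Of the 12 mitochondrial chaperone and protease genes 1 was called, HSP78, the mitochondrial counterpart of Hsp104, at 0.72 and 0.64, in a list whose median was -0.13. Of the 18 genes of folding in the endoplasmic reticulum 1 was called, the Hsp70 gene KAR2, at 0.11 and 0.48, with TTY23 above background on 1 of 2 arrays. PDI1 stood at 0.57 without passing. Over the 7 chaperone lists joined, 13 of 88 genes, HSP30 and BTN2 among them, were called higher and 1 lower (15.9% called, against 5.51% of all probes). The median of all 88 was 0.03.

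**Figure D3:**
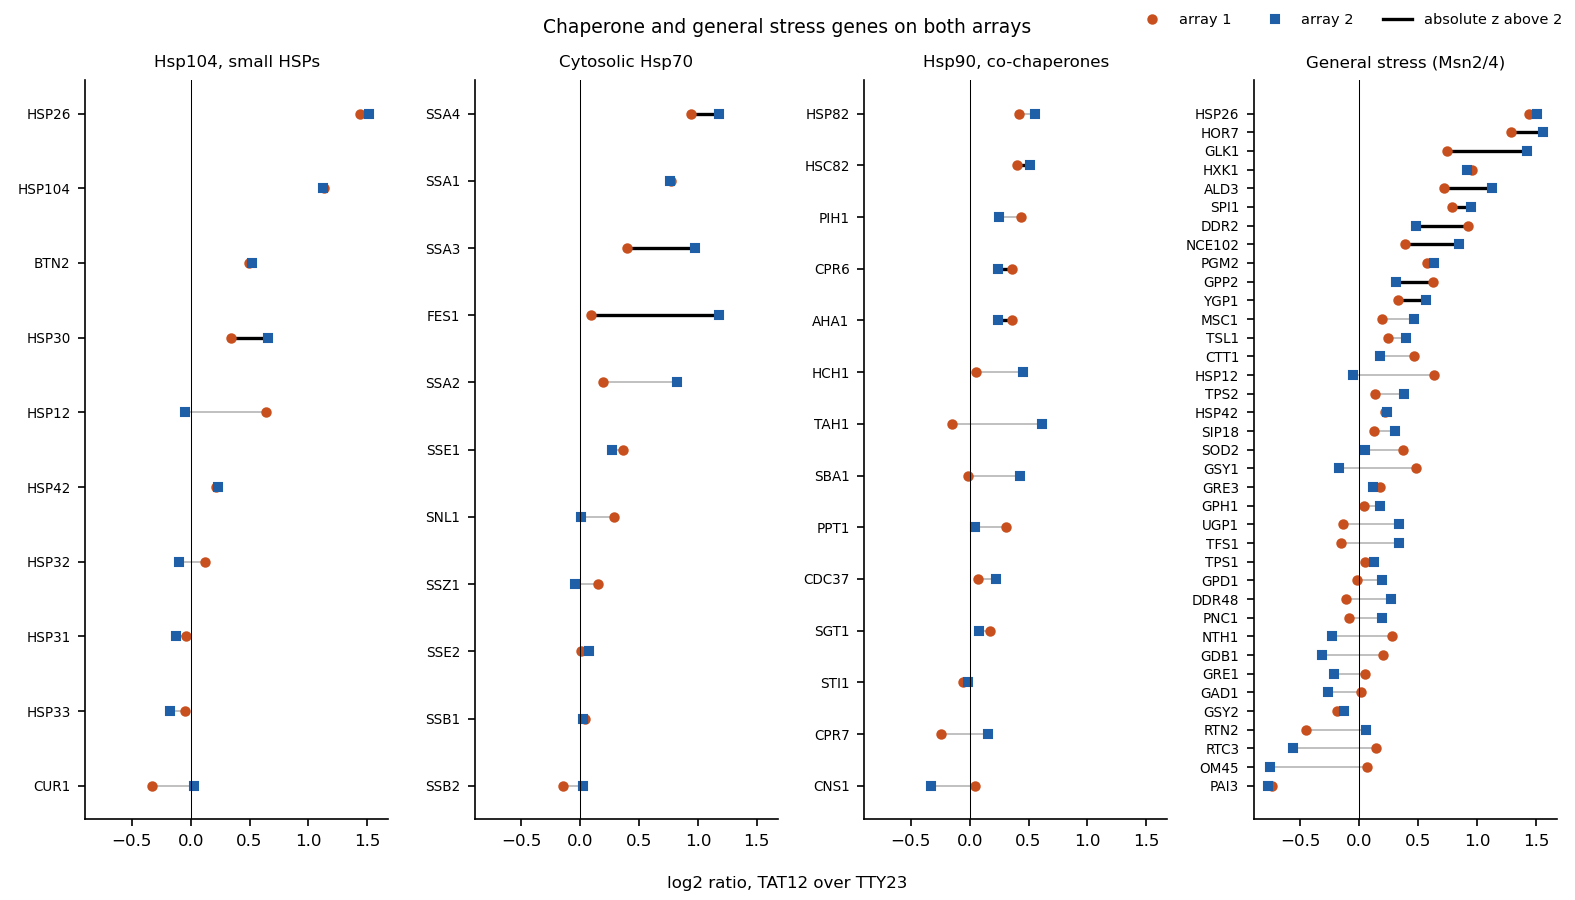
The log2 ratio of TAT12 over TTY23 (x axis) on array 1 (orange circles) and array 2 (blue squares) of each measured gene of 4 lists, with a black line between the arrays where the absolute z-score is above 2 and a grey line elsewhere. Most called genes sit near the top of a panel, from HSP26 at 1.48 downwards, HSP82 heads its panel without a call, and PAI3 at the bottom of the last panel is the 1 called lower.

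The general stress genes, targets of Msn2 and Msn4, held the most calls of any list. Of 37 genes 11 were called higher and 1 lower (32.4% past the threshold, against 5.51% of all probes), the median was 0.21, and 21 of the 37 lay above 0 on both arrays. With HSP26, HOR7 and GLK1 the called genes were the hexokinase gene HXK1 (0.95 and 0.91), the aldehyde dehydrogenase gene ALD3 (0.72 and 1.12), the cell wall gene SPI1 (0.79 and 0.95), DDR2 (0.92 and 0.48), NCE102 (0.39 and 0.85), the phosphoglucomutase gene PGM2 (0.57 and 0.64), the glycerol phosphatase gene GPP2 (0.63 and 0.32) and the cell wall gene YGP1 (0.33 and 0.57). GPP2 was above background in TAT12 on both arrays and in TTY23 on neither. Its bound, 1.38-fold higher in TAT12, was close to the measured 1.39-fold. These genes code for glucose phosphorylation, wall proteins and small stress proteins as well as for chaperones.

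Other classic members of the program had smaller ratios and were not called. The catalase gene CTT1 was at 0.32, the trehalose synthesis genes TSL1, TPS2 and TPS1 at 0.32, 0.26 and 0.09, the superoxide dismutase gene SOD2 at 0.21, GPD1 at 0.08 and the glycogen synthase gene GSY2 at -0.16. DDR48 was at 0.08, while the probe of YMR173W-A, whose systematic name places it at DDR48 (YMR173W), was called at 0.72 and 1.12. The 1 gene called lower was PAI3, an inhibitor of the vacuolar proteinase A, at -0.74 and -0.78, with net signals of 1868 and 2480 in TAT12, against 3372 and 4196 in TTY23. Of 18 trehalose and glycogen genes 1 was called (PGM2, 5.56% against 5.51% of all probes), with a median of 0.10. The members of the general stress list had a median of 0.06 in TAT12 over S288C and of 0.10 in TAT12 over AT22.

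The glycolytic genes showed moderate positive ratios at the lower steps. The 11 genes of lower glycolysis, which carry triose phosphates to pyruvate, had the highest median of all lists at 0.36 (0.27 on array 1 and 0.33 on array 2), and 8 of them lay above 0 on both arrays, but 1 was called, TDH3, at 0.86 and 0.64 on a probe that also names TDH2. The second entry of TDH3 was at 0.43 and not called, and with second entries and shared probes left out 0 genes of the list were called. The pyruvate kinase gene CDC19 was at 0.58, ENO1 at 0.51 (0.10 on its second entry) on a probe shared with ENO2, and GPM1 at 0.44, and the minor isoform genes PYK2 and GPM3 were at -0.17 and -0.24. In the upper pathway 2 of 11 genes were called (18.2%, against 5.51% of all probes), the glucose-phosphorylating GLK1 and HXK1. HXK2, the main hexokinase of growth on glucose, was at 0.08 and PFK1 at -0.08. Of 23 hexose transporters and sensors 13.0% were called, against 5.51% of all probes. HXT4 (0.92 and 0.60) and HXT7 (0.53 and 0.92, on a probe shared with HXT6) were called higher and HXT17 lower at -0.25, on a probe shared with HXT13. Of 11 pyruvate decarboxylase and alcohol dehydrogenase genes ADH7 was called lower, and ADH1 (0.52) and PDC1 (0.24) were not called.

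The lists of proton export and of acetate handling had small medians, while the share called was above that over all probes. Of 18 genes of proton export and its regulators 1 was called higher and 1 lower (11.1% called, against 5.51% of all probes), with a median of 0.01. All 4 signals were above background for 7 of the 18, which limits what could be seen. PMA1, the proton pump itself, was at 0.49 and 0.21 and was not called. Its restrainer HSP30, also counted in the heat-shock list above, was the 1 called higher. NCE103, the carbonic anhydrase gene, was called lower at -0.04 and -0.81, from 1 array, with TAT12 above background on 0 and TTY23 on 1 of the 2 arrays, and the sodium and proton antiporter gene NHA1 stood at -0.58 without passing. Of the 20 vacuolar ATPase genes 10% were called, with a median of 0.02. VMA2, a subunit of the catalytic head, was called higher at 0.40 and 0.44. VMA13, a regulatory subunit, was called lower at -0.45 and -0.24, with TAT12 above background on 1 of 2 arrays. VMA1 was at 0.21.

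Of 20 genes of acetate metabolism and carboxylate transport 3 were called higher and 1 lower (20% called, against 5.51% of all probes), with a median of 0.06. ALD3 is in this list too. The transporter gene AZR1, linked to acetic acid tolerance, gave 0.30 on both arrays, with TTY23 above background on neither. Its bound, 1.22-fold higher in TAT12, was close to the measured 1.23-fold. ACS1 and ALD6 were called with opposite signs on the arrays, ACS1 at -0.43 and 0.83 and ALD6 at -0.82 and 0.25. The acid efflux pump gene PDR12 and its activator WAR1 were at -0.05 and 0.09, HAA1 at -0.23, and the carboxylate transporter genes JEN1, ADY2 and ATO2 at 0.03, -0.02 and 0.08. ATO2 was not above background in either strain, and JEN1, ADY2 and PDR12 were so on at most 1 of 2 arrays per strain, so a difference in these genes was hardly detectable at this signal.

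Of the upstream regulators given here none was called. HSF1 was at 0.07, MSN2 at -0.22, MSN4 at -0.17, SKN7 at -0.14, the Ras gene RAS2 at -0.07 and the Ras inhibitor genes IRA1 and IRA2 at 0.14 and 0.07. HSF1 and IRA1 were above background in TAT12 on 2 arrays and in TTY23 on 1 of 2. GPA2 was at 0.59 and 0.05 (mean 0.32) and the G-beta-like gene ASC1 at 0.42 and 0.05 (mean 0.24). Of the 24 genes of Ras, cyclic AMP and protein kinase A 0 were called (median 0.00), and of the 22 genes of the Snf1 kinase and glucose repression 0 (median 0.05, with SNF4 highest at 0.48).

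The genes of the mitochondrial genome differed widely between the arrays. Of 18 mitochondrially encoded genes 4 were called higher and 0 lower (22.2% called, against 5.51% of all probes), but the median was -0.12 on array 1 and 0.58 on array 2. The cytochrome oxidase subunit gene COX1 (0.79 and 1.06) and the ATP synthase genes ATP8 (0.25 and 1.44) and ATP6 (0.44 and 0.70) agreed in sign. The intron-encoded AI5_ALPHA was called at -0.92 and 1.55, and COX3 and COX2 were at -0.24 and -0.22. On array 1 alone 0 of the 18 were called higher and 4 lower, and on array 2 alone 7 higher and 0 lower. Of 27 nuclear genes of the respiratory chain 3 were called higher and 0 lower (11.1% called, against 5.51% of all probes), with a list median of 0.03. These were QCR8 (0.22 and 0.77), QCR9 (0.47 and 0.55) and QCR10 (0.69 and 0.12), all small subunits of the cytochrome bc1 complex. In TAT12 over S288C QCR9 was below 0 on both arrays, at -0.52 and -0.12. Of the 17 nuclear ATP synthase genes 0 were called. Of 73 mitochondrial ribosomal protein genes 4.11% were called, against 5.51% of all probes, with a median of 0.01. RSM23 and MRPL11 (1.00 and 0.71) were called higher. MRP17 was called lower at -0.12 and -0.24, below background in both strains, and passed the threshold in 3 of 10 alternatives.

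Metal genes held a few large ratios. The metallothionein probes CUP1-2 (0.86 and 1.27) and CUP1-1 (0.68 and 0.86) were both called, and since each names both copies they count as 1 observation of these tandem genes. ZRT1, the high-affinity zinc importer gene, was called higher at 1.18 and 0.65 and ZRT3, which releases zinc from the vacuole, lower at -0.38 and -0.56. Of the 43 metal genes 9.30% were called, against 5.51% of all probes, and the median was 0.00. In TAT12 over S288C the arrays had opposite signs for ZRT1 (0.49 and -0.52) and CUP1-2 (0.43 and -0.50), and over AT22 they gave 1.49 and 0.52 for ZRT1 and 0.61 and 0.24 for CUP1-2.

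Lipid and cell wall genes were called singly. Of 26 genes of ergosterol synthesis 11.5% were called, against 5.51% of all probes, with a median of 0.01. ERG28, a scaffold of the pathway, was called higher at 0.66 and 0.81, with TTY23 above background on 1 of 2 arrays. ERG12 and IDI1 (-0.17 and -0.38, below background in TAT12 on both arrays) were called lower. Of 35 genes of fatty acid and sphingolipid synthesis 5.71% were called, all higher. These were FAS1 (0.32 and 0.33, with a second entry at a mean of 0.09 that was not called) and LCB3 (0.22 and 0.51, with TTY23 above background on 0 of 2 arrays). Of 46 cell wall genes 8.70% were called, against 5.51% of all probes. SPI1, YGP1 and the flocculin gene FLO11 (0.79 and 0.70) were called higher and PIR3 lower at -0.10 and -0.35, below background in both strains. In the subtelomeric families COS8 was called higher at 1.04 and 1.20 on a probe that also names YIR043C, PAU18 higher at 0.47 and 0.96 on a probe naming several family members, and YRF1-7 lower at -0.53 and -0.23 on another such probe.

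The lists of the translation apparatus had medians between -0.07 and 0.10. The share called was 3.70% of the large and 0 of the small ribosomal protein genes. It was 0.98% of the biogenesis genes and 7.69% of the translation factors, against 5.51% of all probes. Of 81 large and 57 small cytosolic ribosomal protein genes 3 were called, RPL32 (0.68 and 0.93), RPL43A (0.30 and 1.27) and RPL9A (0.42 and 0.50, shared with RPL9B), all higher, with medians of 0.07 and 0.10. Of 102 ribosome biogenesis genes 1 was called, GAR1, a protein of small nucleolar particles that modify ribosomal RNA, at 1.00 and 0.79, in a list with a median of -0.03. Of 39 translation factor genes OLA1 was called higher, below background in both strains, and TIF5 (-0.79 and -0.69) and GCD1 (-0.54 and -0.56), which act in start site selection and in loading of the initiator tRNA, lower. Of the 19 RNA polymerase I and III genes 0 were called, with a median of -0.07.

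In biosynthesis, 3 of 45 genes of branched-chain, aromatic, histidine, lysine and serine synthesis were called higher, HIS6 (0.53 and 0.98), the serine gene SER2 (0.63 and 0.37) and ARO8 (0.31 and 0.34). PHA2 was called lower (-0.31 and -0.51), the median was 0.07, and 8.89% of the list was called, against 5.51% of all probes. URA4 of pyrimidine synthesis was called higher at 0.49 and 1.16, the 1 call among 27 purine and pyrimidine genes (3.70%). The histone genes had positive means in 11 of 11 cases, the lowest at 0.008, against 3309 of all 6336 probes, with a median of 0.13. All 4 signals were above background for 7 of the 11, and 2 of their probes name several genes. HTA1 (0.65 and 0.52) and HHT2 (0.35 and 0.30, with TTY23 above background on 1 of 2 arrays) were called higher, 18.2% of the histone list. HHT1 and HHF1 were at -0.68 and -0.74 on array 1 and at 1.02 and 0.95 on array 2. Of 20 haploid and pheromone response genes 15% were called, against 5.51% of all probes, all higher. These were RME1 (0.38 and 1.10), GPA1 (0.25 and 0.40) and STE18 (0.07 and 0.49). Not all 4 spots of STE18 were above 0, and TAT12 was above background on 1 and TTY23 on 0 of the 2 arrays. Of the 33 antioxidant, 19 pentose phosphate and 43 sulfur and methionine genes 0, 0 and 1 were called (2.33% of the last). Of 34 proteasome genes 8.82% were called. PUP2 (0.31) and RPN13 (0.22) were higher and SEM1 (-0.19) lower, the last 2 below background in both strains.

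**Figure D4:**
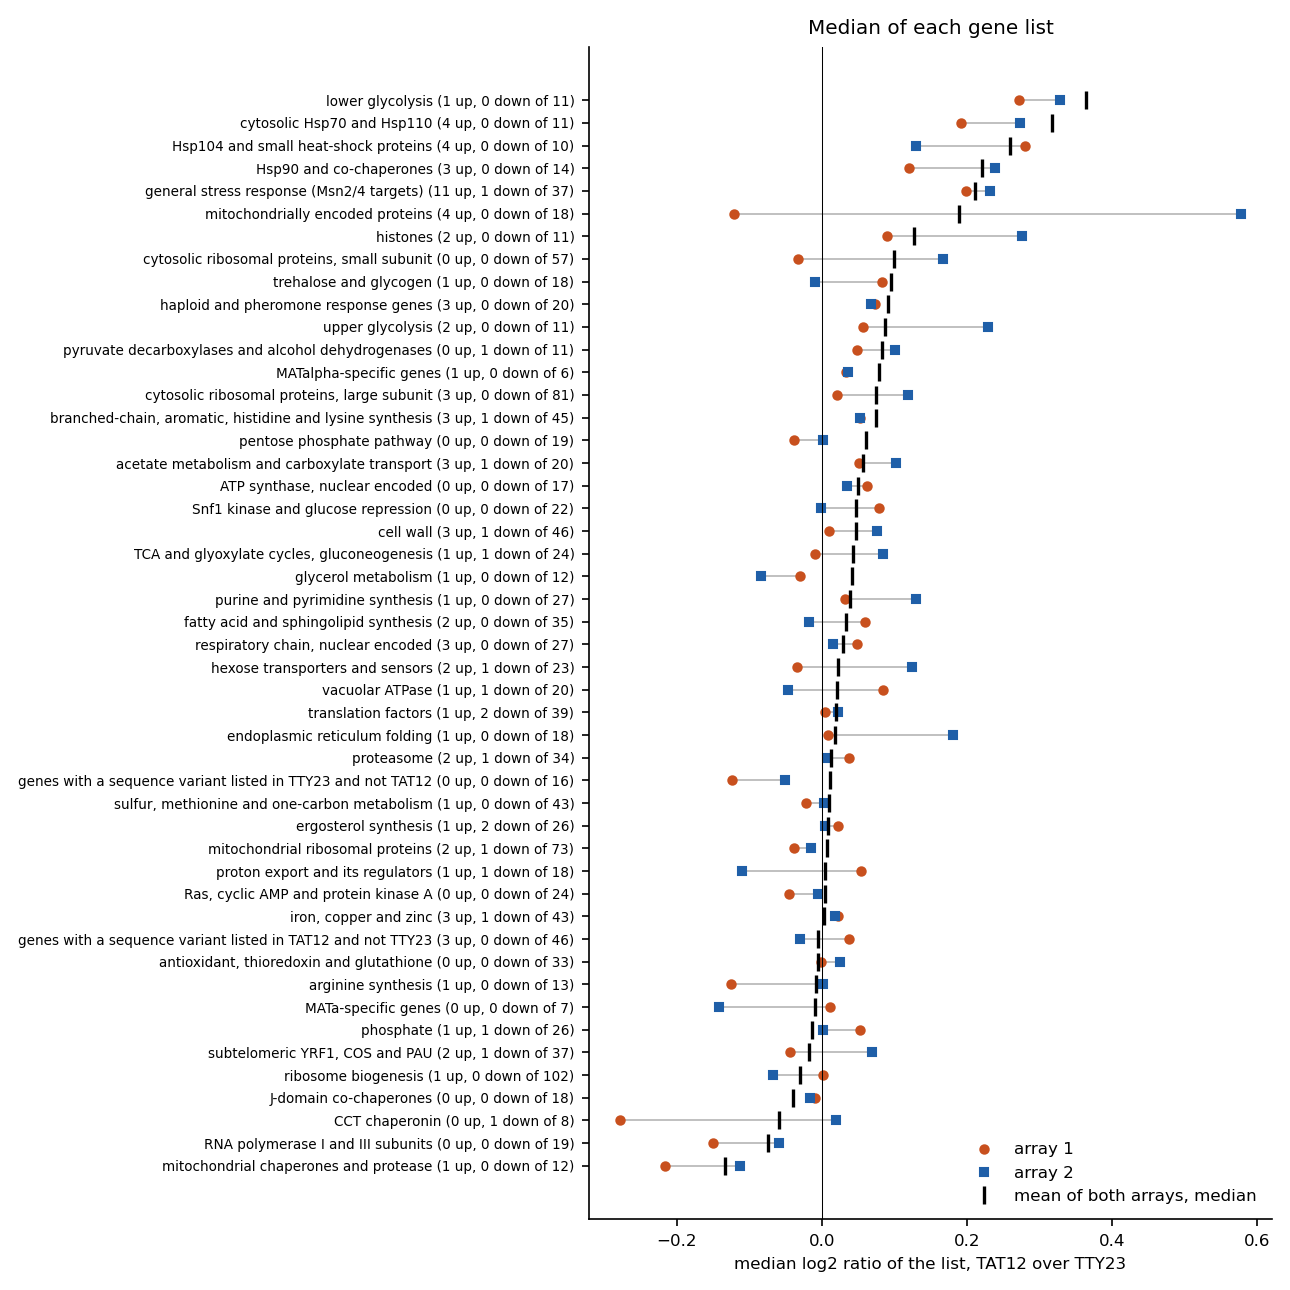
The median log2 ratio of TAT12 over TTY23 (x axis) of each of the 48 gene lists on array 1 (orange circles), on array 2 (blue squares) and for the mean of both arrays (black lines), with the number of members called higher and lower of those measured beside each name. Lower glycolysis, the Hsp70, Hsp104 and Hsp90 lists and the general stress genes are at the top with both arrays above 0, the CCT chaperonin and J-domain lists are near the bottom, and the mitochondrially encoded genes have the widest gap between arrays.

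Genes that carry a sequence variant in 1 of the strains by a table of selected variants in the study were looked at as lists, which do not hold every variant gene of either strain. Of 46 genes with a variant listed in TAT12 and not in TTY23, 3 were called, GLK1, SSA3 and VMA2, all higher, and the median was -0.01. Of 16 genes listed in TTY23 and not in TAT12 0 were called, with SIT1 (-0.50) and TOR1 (-0.33) farthest from 0. The shares called were 6.52% and 0, against 5.51% of all probes.

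The difference between the arrays divided by 2 was past the same z-score threshold in 291 probes (4.59%), 53 with the higher value on array 1 (0.836%) and 238 with the higher value on array 2 (3.76%). Of the 32 called probes with opposite signs, 22 were called higher and 10 lower. ARG2, of arginine synthesis, is the widest case among the genes named here, at -1.34 and 1.90 (mean 0.28), with each strain above background on 1 of 2 arrays.

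By chromosome, the median log2 ratio of the mean of both arrays lay between -0.06 (chromosome XVI) and 0.07 (VII and VIII) for the nuclear chromosomes. On chromosome VII 29 probes were called higher and 5 lower, on VIII 17 and 1, on XI 3 and 12 and on XVI 3 and 19. The probes were printed in chromosome order: in each of the 17 rows of spots that the print blocks share, the commonest chromosome made up between 51.7% and 100% of the annotated probes, and the row medians ran between -0.05 and 0.08. Chromosome and row on the glass cannot be told apart in these arrays. With loess in each print block the calls on VII, VIII and XVI were 30 and 4, 18 and 0, and 3 and 18.

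**Figure D5:**
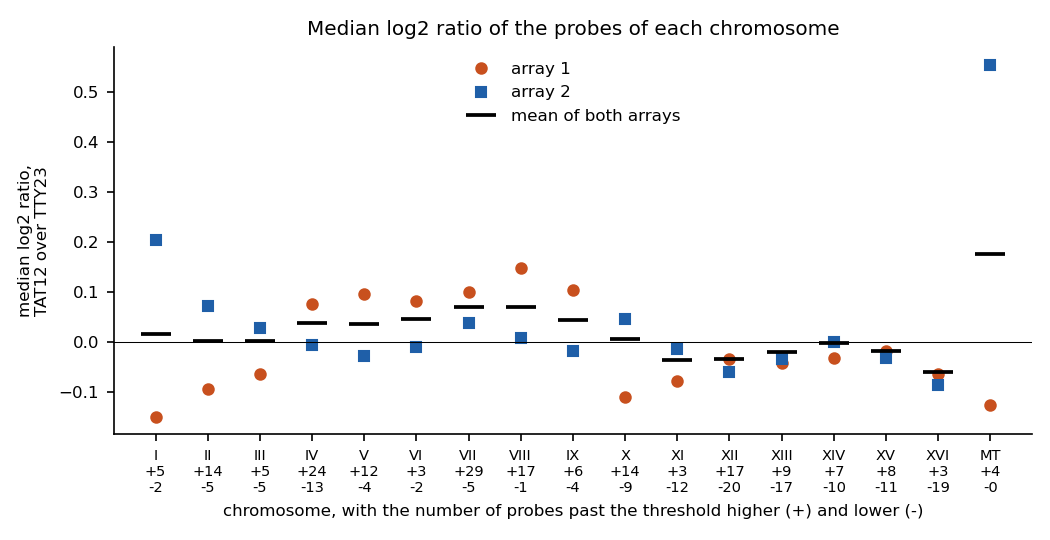
The median log2 ratio of TAT12 over TTY23 (y axis) of the probes of each chromosome and of the mitochondrial genome (MT) on array 1 (orange circles), on array 2 (blue squares) and for the mean of both arrays (black bars), with the numbers called higher and lower under each name. The nuclear medians of the mean stay between -0.06 and 0.07, and the mitochondrial genome is at -0.13 on array 1 and 0.55 on array 2.

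The array holds a second entry for 86 genes. The ratios of both entries had a Pearson correlation of 0.58 over these genes, with a median gap of 0.10, and of the 5 genes called on either entry 0 were called on both and 0 had opposite signs. TDH3 and FAS1 are 2 of these 5 genes.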

How the data were processed

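RNA of TAT12 and TTY23 was hybridised as a dye swap on 2 arrays of printed 50-mer probes, each with 13056 spots. For either dye of an array the deposited files give the mean intensity of each spot and its mean local background, not normalized (net signals printed here are the first minus the second). The deposited score values are z-scores that the authors made from the dye swap with genArise (version and background step not given in the sources used here), and they serve as an alternative. Its direction was found from its correlation with the scanner values (r = 0.93 over 6144 probes).

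The background was corrected with normexp (offset 50) and the log2 ratios were normalized by loess within each array, both in limma 3.58.1 (R 4.3.3). Duplicate spots were averaged, array 1 and array 2 turned to TAT12 over TTY23 and averaged, and the z-score was taken over the 100 probes nearest in mean intensity with a threshold of 2. The limma fit (lmFit, eBayes, Benjamini-Hochberg) used the 4 dye-swap means. Other steps ran in Python 3.11.15 with numpy 2.4.6 and pandas 2.3.3, figures in matplotlib 3.10.9, and the steps were tested on simulated data. The precision is limited by 2 arrays of 1 RNA pair. A signal bound sets the brighter strain's mean against the dimmer strain's own level, or against the lowest level above background where that is higher. It can therefore lie close to the measured ratio and is then no wider margin.

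Of 6250 genes on the array 5763 matched RefSeq by systematic name, from which current symbols were taken, and 487 kept the name in the files. The files name no build, so no coordinates are given. The 275 probes that name several genes cannot be separated. Named genes were the 12 highest and 12 lowest that were called, had the same sign on all 4 spots, had all 4 signals above background and had a probe naming 1 gene; up to 4 called members of each of 48 lists, or 3 of the largest ratio where under 2 were called; and 26 genes of heat and acid tolerance. Other list members, the neighbours of YDL023C, TVP18 and DDR48, and the genes at the threshold were named after their values were seen. The comparison, the members and the lists were chosen with earlier results of these data known. Alternatives covered background, normalization, filter, single arrays, threshold, window and average.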

Additional observations from a re-analysis of the deposited data

Results flagged for a closer look

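The arrays carry 32 probes whose names begin with Ara and whose purpose is not given in the sources used here. They entered no comparison, yet most gave signal above background, as set by the empty spots: 28 in TAT12 and 29 in TTY23 on array 1, and 29 in TAT12 and 28 in TTY23 on array 2. Their median net signals were 169 in TAT12 and 204 in TTY23 on array 1, and 185 in TAT12 and 141 in TTY23 on array 2. Their log2 ratios of TAT12 over TTY23 ran between -0.62 and 0.58 with a median of -0.13.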

How the results depend on the processing

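The z-score scales each probe by the SD of its neighbours, so the number of calls follows mostly from the rule and from how many probes are tested. The difference between the arrays, in which the strains cancel, gave 291, so a steady count says nothing on the strains. The 349 calls changed in number by more than 1.5 times under a filter for signal above background (209, with only 4006 probes tested), an absolute z-score above 1 (1837) or above 3 (59), and a log2 ratio of at least 1 in size (13). All other alternatives called between 287 and 357 probes, but other probes: of the 349, 113 were called in the same direction and 8 in the opposite one on array 1 alone (38.0% of its 316 calls higher), 134 on array 2 alone (75% of its 320 calls higher), 167 with all genes as the window, 203 in the authors' z-scores and 257 without background correction. The limma count was 1 with array 2 of the swap between AT22 and S288C turned and 0 otherwise. ARG2 was reversed on array 1 alone (-1.34) and CCT3 on array 2 alone (0.0522). Of 1670 values of named genes under alternatives 1526 moved by less than the SD over their 4 spots. That SD includes the gap between the arrays, so a value of 1 array alone could not move beyond it. The count therefore says nothing on how well the arrays agreed. The general stress list held 11 higher members under all alternatives of background, normalization and spot average and had 8 on each array alone and in the authors' z-scores. The Hsp90 list held 0 higher on array 1 alone and 1 on array 2 alone. Centring on rows of spots, leaving out second entries and shared probes, and asking for the same sign on all 4 spots were chosen after seeing the data and called 357, 318 and 297. No paired analysis was possible because the comparison is 1 dye swap and its columns carry no replicate number.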
